A study of Homo sapiens with 9 samples.

Results

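Matrix metalloproteinases and their tissue inhibitors were examined by transcript level in 3 lines of HEK293 cells. The members were named by symbol, and every non-control probe whose gene name in the scanner files was one of these symbols was taken. They comprised 7 proteases, MMP1, MMP2, MMP3, MMP9, MMP10, MMP13 and MMP14, and 3 inhibitors, TIMP1, TIMP2 and TIMP3. These 10 genes were among the 36334 gene names on the array and were read by 11 of its 50598 probes. All 10 genes could be tested, each with 1 probe, whereas the second MMP2 probe did not rise well above background on the 9 arrays.

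HEK293 is an established human embryonic kidney cell line. The cells stably expressed HA-tagged MEK1, the kinase that activates ERK and is encoded by MAP2K1, as wild type (WT), as the F53S mutant found in RASopathies or as the K57N mutant found in cancer. RNA from each line was hybridized, with 1 dye, to 3 Agilent human gene expression arrays, which the study describes as independent experiments on cells at steady state. Because there was 1 stable line for each form of MEK1, an effect of the mutation cannot be told apart from any further difference between the lines.

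Matrix metalloproteinases are zinc-dependent endopeptidases that cleave collagens, gelatins, proteoglycans and other proteins outside the cell. Most are secreted as inactive precursors, MMP14 is anchored in the plasma membrane, and the TIMP proteins block the active enzymes by binding their catalytic site. Transcription of several of these genes, among them MMP1, MMP3, MMP10, MMP13 and TIMP1, is known to respond to AP-1 and ETS family factors, which act downstream of ERK in many cell types.

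Among the RefSeq promoter windows of GRCh38.p14, each of 250 bases before to 50 bases after a transcription start, 4 of the 10 members had an entry, MMP10, MMP14, TIMP1 and TIMP3. The last 100 bases before the start are shown for each of these 4, whatever its call, 5′ to 3′ on the strand of the gene. MMP10 and TIMP1 were called in K57N cells, and MMP14 and TIMP3 were not called. Capitals mark the motifs searched on both strands, AP-1 (TGANTCA), ETS (AGGAAG or CCGGAA) and the TATA box (TATAAA), and no matches overlapped.
MMP10, chr11:102780629-102780728, minus strand: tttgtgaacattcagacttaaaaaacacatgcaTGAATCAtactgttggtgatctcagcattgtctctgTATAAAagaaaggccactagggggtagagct
TIMP1, chrX:47582336-47582435, plus strand: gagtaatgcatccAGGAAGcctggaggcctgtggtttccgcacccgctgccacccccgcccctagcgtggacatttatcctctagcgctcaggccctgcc
MMP14, chr14:22836485-22836584, plus strand: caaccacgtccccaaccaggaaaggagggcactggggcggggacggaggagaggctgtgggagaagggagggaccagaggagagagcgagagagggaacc
TIMP3, chr22:32801605-32801704, plus strand: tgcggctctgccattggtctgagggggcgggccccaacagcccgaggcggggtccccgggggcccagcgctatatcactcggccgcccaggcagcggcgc
The MMP10 window held an AP-1 match that began 67 bases before the start and a TATAAA match that began 31 bases before it. The TIMP1 window held an ETS match that began 87 bases before the start. The MMP14 window held a CCGGAA match only after the start, outside the bases shown, and the TIMP3 window held none of these letters. Of all 35116 windows, 7.7% held the AP-1 letters, 45.4% an ETS motif and 11.5% TATAAA, and a match describes the sequence without showing that a factor binds there.

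Signals are given as log2 of the processed intensity relative to the 75th percentile of the same array, so that 0 stands for that percentile. Slide 1 carried replicate 1 of each line, and slide 2 carried replicates 2 and 3. The 75th percentile was between 245 and 376.2 on slide 1 and between 695 and 821 on slide 2, and an array had from 23714 to 29324 probes well above background by the scanner's own call. Testing required that a probe stood well above background on every array of 1 or more lines. This left 19211 genes, each represented by its tested probe with the highest mean signal. A gene was called higher or lower at a Benjamini-Hochberg adjusted p below 0.05 and more than 2-fold in a limma fit of all 9 arrays. Over the genes tested, standard errors of log2 fold changes had a median of 0.29.

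MAP2K1 was well above background on all arrays. Its signal was 2.36, 2.34 and 2.42 in WT cells, 2.50, 2.39 and 2.46 in F53S cells and 2.92, 2.81 and 2.82 in K57N cells. The K57N arrays lay above the others, but the gene was not called (log2 fold change against WT 0.48, adjusted p = 0.135). Whether its probe reads the introduced transcript as well as that of the cells was not tested, so that the probe does not check the labels. Markers of HEK293 cells were present: VIM, KRT8, KRT18, CDH2, PAX2 and NEFL were well above background on all arrays and NEFM on 2 arrays of each line, with no call among the 6 that were tested. Of 8 markers of fibroblasts, a main source of MMP1 and MMP3 in tissue, COL1A1 was well above background on all arrays and PDGFRA on all but 1, LUM on 2 arrays of each line, COL3A1 on 2 WT and 2 F53S arrays, THY1 on 1 F53S and 2 K57N arrays and COL1A2, DCN and PDGFRB on none.

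In K57N cells, 4 of the 7 proteases and 1 of the 3 inhibitors were called higher than in WT cells, and none was called lower. The proteases were MMP1, MMP3, MMP10 and MMP13, and the inhibitor was TIMP1. For comparison, 292 of the 19211 genes tested were called higher, which is 1.52%, and 142, or 0.739%, were called lower. With a slide term, 491 of these genes were called higher and 376 lower. MMP3, MMP10 and MMP13 passed the filter on dim probes through the K57N arrays alone and MMP1 and MMP2 through both mutants, and a gene that passes where it is high is more likely to differ. The members were also chosen with earlier results of these data known. The median log2 fold change was 3.82 over the 7 proteases, −0.32 over the 3 inhibitors and −0.06 over all genes tested. With MMP3 and MMP10 set at the bounds explained with their values, the median of the proteases was 1.81. The medians of the members are values of single genes, MMP3 for the proteases and TIMP3 for the inhibitors. TIMP1 had 3.82. For all 5 genes the K57N arrays lay above every WT array, as they did for 10.2% of all genes tested.

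**Figure D1:**
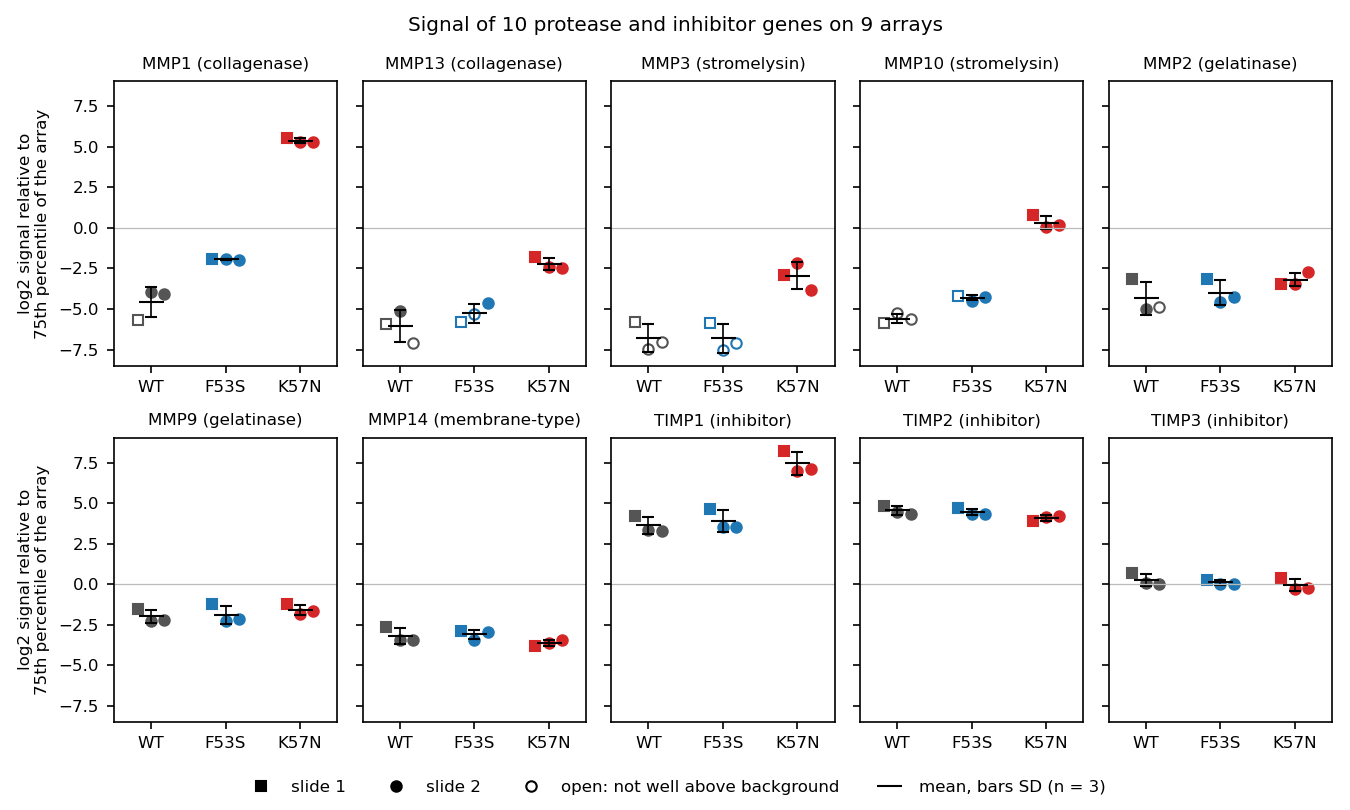
Log2 signal of the 10 genes relative to the 75th percentile of each array, by cell line, with squares for slide 1, circles for slide 2, open symbols where the probe was not well above background, and bars for the mean and SD of 3 arrays. The K57N arrays stand above all others for MMP1, MMP13, MMP3, MMP10 and TIMP1, whereas the lines overlap for MMP2, MMP9, MMP14 and TIMP3. Levels of different genes come from different probes and are not comparable.

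The collagenases MMP1 and MMP13 cleave fibrillar collagen. The MMP1 probe, at chr11:102660697-102660756 of hg19, gave −5.66, −3.95 and −4.09 on the WT arrays, −1.94, −1.92 and −1.97 on the F53S arrays and 5.54, 5.31 and 5.33 on the K57N arrays. The 3 lines did not overlap, K57N was the highest and WT the lowest, and the first WT array was the only 1 of the 9 not well above background. The mean was 5.39 ± 0.13 (SD, n = 3) in K57N and −4.57 ± 0.95 in WT cells, a log2 fold change of 9.96 (SE 0.40, 95% interval 9.04 to 10.89, adjusted p = 3.42e-05 by limma). With normexp background correction the log2 fold change was 7.94, below this interval, and still called (adjusted p = 1.13e-06 by limma). Against F53S cells the log2 fold change was 7.34 (95% interval 6.41 to 8.26, adjusted p = 0.000425). The difference from WT was 11.21 on slide 1, where WT was at background, and 9.34 on slide 2, and after adding a slide term the adjusted p was 5.64e-06. MMP1 was spotted 10 times per array, and over the spots retained the processed signal spanned 17100 to 18200 on the first K57N array and 4.35 to 8.5 on the first WT array.

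MMP13 was near the detection limit outside K57N cells. Its probe, at chr11:102813773-102813832, gave −5.90, −5.15 and −7.09 in WT cells, −5.79, −5.33 and −4.64 in F53S cells and −1.80, −2.41 and −2.44 in K57N cells. All K57N arrays were above all others, and 1 WT and 1 F53S array were well above background. The log2 fold change was 3.83 against WT (SE 0.49, adjusted p = 0.00628) and 3.04 against F53S (adjusted p = 0.0288). These values rest in part on the 4 WT and F53S arrays at background, and with normexp background correction they were 1.22 and 1.06, neither called (adjusted p = 0.272 and 0.535). The call against WT was also lost with the methods' t-test after adjustment (0.114). The call against F53S was lost under 12 of 21 alternatives. These were leaving out any 1 of the F53S or K57N arrays, with adjusted p between 0.0643 and 0.123, normexp, the methods' t-test after adjustment (0.125), quantile normalization (0.0609), slide 2 alone (0.0839) and no filter on dim probes without (0.115) and with the slide term (0.0586). Over all its alternatives the adjusted p lay between 0.00958 and 0.535. Within slides, the difference from WT was 4.10 on slide 1 and 3.69 on slide 2.

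The stromelysins MMP3 and MMP10 cleave proteoglycans and fibronectin, and can activate other metalloproteinase precursors. MMP10, whose promoter holds the AP-1 and TATAAA matches shown, gave −5.85, −5.27 and −5.64 in WT cells, −4.18, −4.49 and −4.23 in F53S cells and 0.77, 0.08 and 0.16 in K57N cells. The lines did not overlap, and the probe was well above background on no WT array and on 2 of the 3 F53S arrays. MMP10 was called higher in K57N against WT by the limma fit to these signals (adjusted p = 3.42e-05). Because the WT value is a bound, the K57N mean of 0.33 ± 0.38 (SD, n = 3) was set against a limit. On each WT array this was the higher of the probe's own signal and the lowest signal well above background. It gave a bound of at least 32.5-fold, which was not tested. This bound depends on the treatment of background, since normexp, which adds a constant to every signal, gave a log2 fold change of 3.24, below it. Against F53S cells the log2 fold change was 4.64 (SE 0.24, adjusted p = 0.000374). This value lay between 2.91 and 4.76 over its alternatives, and it rests in part on the F53S array not well above background. K57N lay above WT on both slides, where the size of the difference rests on WT signals at background.

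On the WT and F53S arrays the MMP3 probe never rose well above background. The 3 K57N arrays gave −2.90, −2.14 and −3.82, against −5.82, −7.48 and −7.01 in WT cells and −5.84, −7.53 and −7.10 in F53S cells. MMP3 was called higher in K57N by the limma fit to these signals, against WT (adjusted p = 0.0155) and against F53S (adjusted p = 0.0262). By bounds set as for MMP10, which were not tested, K57N was at least 3.51-fold above WT and at least 3.53-fold above F53S. With normexp the log2 fold changes fell below these bounds, to 1.04 and 1.03, and neither was called (adjusted p = 0.616 and 0.804). The call against WT was lost without WT replicate 2 (adjusted p = 0.068), WT replicate 3 (0.0744), K57N replicate 1 (0.0713) or K57N replicate 2 (0.0685), and also without the filter on dim probes (0.0609) and with the methods' t-test after adjustment (0.138). Against F53S it was lost without any of these K57N arrays or F53S replicates 2 or 3, or WT replicate 3, with adjusted p between 0.0597 and 0.118, under the same other 2 alternatives (0.103 and 0.207) and in the fit of 2 groups at a time (0.0541). After adding a slide term, adjusted p was 0.00185 against WT and 0.00273 against F53S. Over all its alternatives the adjusted p against WT lay between 0.00119 and 0.616.

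The gelatinases MMP2 and MMP9, which cleave denatured collagen and type IV collagen of basement membranes, and the membrane-bound MMP14, which activates the MMP2 precursor, were not called in any comparison in the fit of all arrays. MMP2 gave −3.16, −5.02 and −4.87 in WT cells, −3.14, −4.58 and −4.27 in F53S cells and −3.43, −3.44 and −2.72 in K57N cells. The lines overlapped, since the first WT and F53S arrays were above 2 of the 3 K57N arrays. K57N against WT was −0.26 on slide 1 and 1.87 on slide 2, so that the pooled log2 fold change of 1.16 (95% interval −0.10 to 2.42, adjusted p = 0.442) did not hold within both slides. In a fit of slide 2 alone, chosen after seeing the data, MMP2 was called against WT (adjusted p = 0.0177, against 0.0177 to 1 over its alternatives) and against F53S (adjusted p = 0.0471), and the cause was not tested. The other MMP2 probe lies 116.8 kb away in the annotation of the array and read no signal well above background.

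MMP9 was well above background on all 9 arrays, between −2.26 and −1.25, and was spotted 10 times on each. Its log2 fold change in K57N against WT was 0.41 (95% interval −0.34 to 1.15, adjusted p = 0.76), and the adjusted p was 0.0455 after a slide term was added, at a change below 2-fold. MMP14 lay between −3.82 and −2.62 on all arrays, with a log2 fold change of −0.44 (95% interval −1.06 to 0.19, adjusted p = 0.625). Its difference from WT was −1.20 on slide 1 and −0.05 on slide 2. Without a slide term the intervals of MMP9 and MMP14 reach past 2-fold on 1 side, so that the arrays do not show equal levels. With a slide term they were 0.14 to 0.67 and −0.99 to 0.11, within 2-fold.

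**Figure D2:**
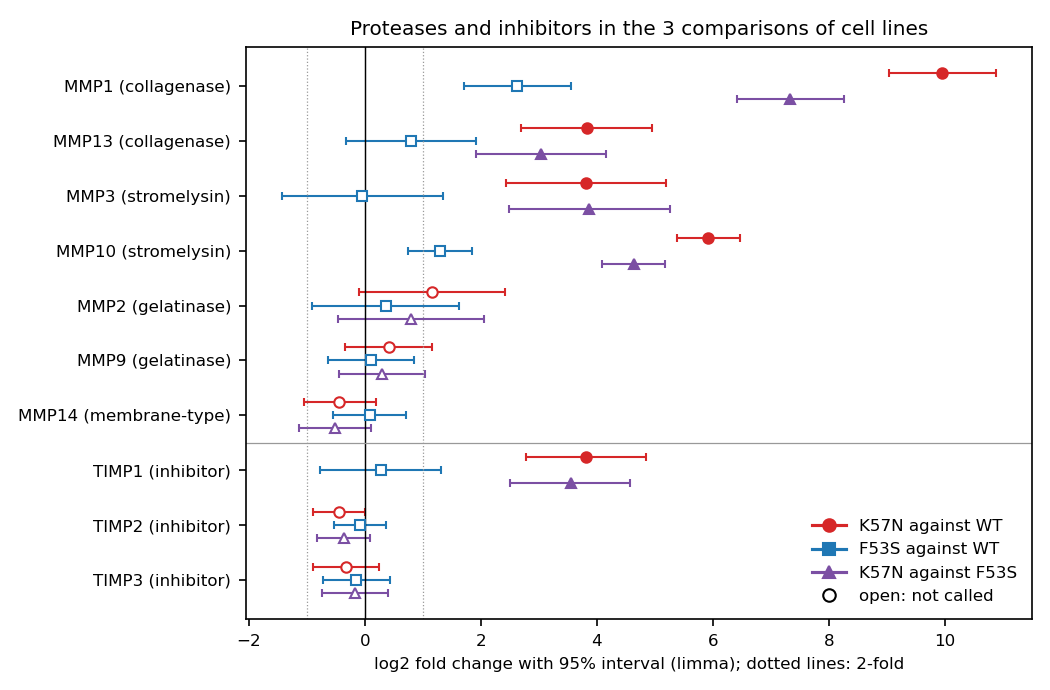
Log2 fold change with its 95% interval from limma for each gene in K57N against WT, F53S against WT and K57N against F53S, filled where called and open where not, with proteases above and inhibitors below the horizontal line. MMP1, MMP13, MMP3, MMP10 and TIMP1 are called in both comparisons with K57N, and no gene is called in F53S against WT. Fitted values of MMP3 and MMP10 against WT, and of MMP3 against F53S, rest on signals at background and do not measure a size. Those of MMP13, of MMP10 against F53S, and of MMP1 and MMP2 against WT rest in part on such signals.

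TIMP1, a secreted inhibitor of most metalloproteinases that also has growth-promoting activity, was the called inhibitor. Its probe, at chrX:47444666-47444725 of hg19, gave 4.23, 3.35 and 3.31 in WT cells, 4.67, 3.51 and 3.53 in F53S cells and 8.24, 7.01 and 7.09 in K57N cells. Every K57N array was above every WT and F53S array, and the slide 1 array of each line was the highest of its line. The mean was 7.45 ± 0.69 (SD, n = 3) in K57N and 3.63 ± 0.52 in WT cells, a log2 fold change of 3.82 (SE 0.45, 95% interval 2.78 to 4.85, adjusted p = 0.00425), or 14.1-fold. After adding a slide term, the interval narrowed to 3.60 to 4.04 (adjusted p = 1.63e-06), and the differences within slides were 4.01 and 3.72. Against F53S cells the log2 fold change was 3.55 (adjusted p = 0.0103), and this call was lost without F53S replicate 2 (adjusted p = 0.0522) or F53S replicate 3 (0.0604) and with the methods' t-test after adjustment, within a range of 2.84e-06 to 0.167 over its alternatives.

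TIMP2, which takes part with MMP14 in the activation of MMP2 on the cell surface, gave 4.84, 4.46 and 4.34 in WT cells, 4.70, 4.36 and 4.33 in F53S cells and 3.90, 4.16 and 4.23 in K57N cells. The K57N arrays lay below all others, as they did for 12.7% of genes against WT and 10.3% against F53S, but TIMP2 was not called (log2 fold change against WT −0.45, 95% interval −0.90 to 0.00, adjusted p = 0.383). The difference was −0.94 on slide 1 and −0.21 on slide 2. TIMP3, which binds to the extracellular matrix, lay between −0.31 and 0.68 on all arrays with overlapping lines (log2 fold change −0.32, 95% interval −0.89 to 0.25, adjusted p = 0.753). TIMP2 and TIMP3 therefore had negative values in K57N against WT where TIMP1 had a positive one, with neither past the threshold.

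Against F53S cells, K57N cells had the same numbers called higher, 4 of 7 proteases and 1 of 3 inhibitors, beside 183 of 19211 genes tested or 0.953%. The genes were MMP1, MMP3, MMP10, MMP13 and TIMP1. This comparison is the direct test of the difference between the mutants. Of these genes, MMP3, MMP10 and MMP13 passed the filter on dim probes through the K57N arrays alone. The filter therefore takes part in setting this count. The median log2 fold change was 3.04 over the proteases, or 1.82 with MMP3 at its bound, −0.17 over the inhibitors and −0.07 over all genes tested. The medians of the members are values of single genes, MMP13 or the bound of MMP3 for the proteases and TIMP3 for the inhibitors. TIMP1 had 3.55. For these 5 genes the K57N arrays lay above every F53S array, as they did for 8.3% of all genes tested. The comparisons of K57N with WT and with F53S share the K57N arrays, and those of each mutant with WT share the WT arrays. After adding a slide term, the 5 genes were called in both comparisons with K57N and none in F53S against WT, beside 2.56% of genes called higher against WT and 1.88% against F53S. Against F53S, 3 members were called with normexp and 3 without a filter on dim probes, and fewer without F53S replicate 2 or 3.

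In F53S cells, 0 of the 10 genes were called against WT by limma, as were 0 of the 19211 genes tested, or 0%. At an unadjusted p below 0.05, limma gave 2 of the 10 genes and 171 of all genes tested, and with more than 2-fold by fitted value the same 2 members and 43 of all genes, or 0.224%. The methods' t-test gave 2 of the 10 members and 24 of all genes without adjustment and 0 of each with it. The 2 genes were MMP1 and MMP10, and MMP10 passes 2-fold only by a fit to WT signals at background. For both, every F53S array lay above every WT array, as for 1.54% of genes tested. MMP1 had a log2 fold change of 2.62 (95% interval 1.70 to 3.55, adjusted p = 0.654), with a difference of 3.72 on slide 1 and 2.08 on slide 2. With normexp background correction the log2 fold change was 1.17, below this interval, and MMP1 was not called. Without WT replicate 1, on which its probe was not well above background, MMP1 was called (log2 fold change 2.08, adjusted p = 0.0356), and over its alternatives the adjusted p lay between 0.0356 and 1. MMP10 had an F53S mean of −4.30 ± 0.16 (SD, n = 3), with 2 F53S arrays and 0 WT arrays well above background (adjusted p = 1), so that the size of its difference was not measured. TIMP1 differed from WT by a log2 fold change of 0.27 (95% interval −0.77 to 1.31), and the median over the proteases was 0.36, over the inhibitors −0.08 and over all genes 0.01.

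**Figure D3:**
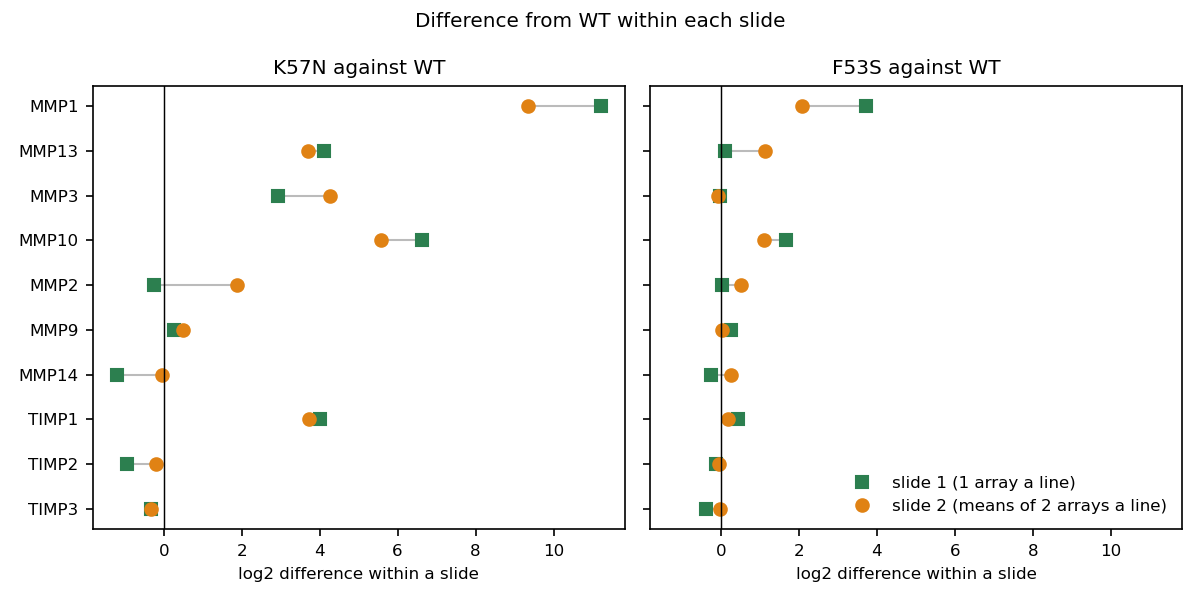
Log2 difference of K57N (left) and F53S (right) from WT within slide 1, with 1 array per line, and within slide 2, with the mean of 2 arrays per line. In K57N cells MMP1, MMP13, MMP3, MMP10 and TIMP1 are above 0 on both slides, while MMP2 is at −0.26 on slide 1 and 1.87 on slide 2. For MMP3 and MMP10 the WT values are at background on both slides.

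The 4 called proteases lie near each other in the genome. By the hg19 positions of their probes, MMP10, MMP1, MMP3 and MMP13 lie in a run of 9 metalloproteinase genes over 420 kb of chromosome 11, where MMP12 lies between MMP3 and MMP13. The other genes of the run, MMP7, MMP20, MMP27, MMP8 and MMP12, were not tested, because none was well above background on more than 1 of the 9 arrays. The proteases outside the run, MMP2, MMP9 and MMP14, lie on chromosomes 16, 20 and 14, and TIMP1 lies on the X chromosome. All 4 genes of the run that were tested were called higher in K57N against WT, beside 1.52% of all genes tested. The difference of the other 5 was not measured. Since MMP3, MMP10 and MMP13 could be tested only because they were high in K57N cells, the filter takes part in setting this count. The count therefore adds no support to the calls.

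Of the 17 genes in a list of other metalloproteinases and TIMP4, 10 were tested and 1 was called in K57N against WT, as lower, beside 0.739% of all genes tested. This was MMP23B, which gave −1.14, −1.65 and −1.73 in WT cells and −3.13, −2.87 and −2.85 in K57N cells (log2 fold change −1.44, adjusted p = 0.0124), a call kept under 16 of 22 alternatives. The value is uncertain as to gene, since MMP23B has a nearly identical copy, MMP23A. TIMP4, the remaining inhibitor of the family, had a log2 fold change of 0.32 (95% interval −0.79 to 1.42, adjusted p = 0.94). In F53S against WT and K57N against F53S, 0 of the 10 were called. Of all 19211 genes tested, 0 were called in F53S against WT, and 183 higher and 47 lower in K57N against F53S.

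Of 18 activators and regulators of these proteases, 15 were tested, with 6 called higher and 1 lower in K57N against WT (1.52% and 0.739% of all genes tested) and 4 called higher against F53S (0.953% of all). The list was written with earlier results of these data known, so that its counts cannot set these genes apart from all genes tested. PLAU, the urokinase that generates plasmin, an activator of several metalloproteinase precursors, gave −0.52, −0.99 and −1.10 in WT cells and 1.86, 0.82 and 0.80 in K57N cells (log2 fold change 2.03, adjusted p = 0.0215). Its receptor PLAUR had a log2 fold change of 2.63 (adjusted p = 0.00675). The protease KLK6 had 3.10 (adjusted p = 0.00214), and CD44, a hyaluronan receptor that can hold MMP9 at the cell surface, had 1.37 (adjusted p = 0.0052). Called genes also included inhibitors of serine proteases: TFPI2, with 4.83 (adjusted p = 0.000283), and SERPINE2, with 1.51 (adjusted p = 0.00423). LRP1, an endocytic receptor that clears proteases and their complexes, was lower by the test (log2 fold change −1.08, adjusted p = 0.0428), with −1.74 on slide 1 and −0.76 on slide 2. That call held under 6 of 22 alternatives, PLAU's under 15, CD44's under 19 and those of the other 4 genes under 21 or 22. A second LRP1 probe had means of −3.77 in WT and −3.85 in K57N cells, and a second CD44 probe −3.32 and −2.54. RECK, a membrane-anchored inhibitor of metalloproteinases, had −0.59 (95% interval −1.21 to 0.02, adjusted p = 0.408), and after adding a slide term its adjusted p was 0.00542 at less than 2-fold. Against F53S cells, PLAUR, TFPI2, CD44 and KLK6 were called, in turn under 17, 21, 14 and 20 of 22 alternatives, and PLAU was not (log2 fold change 1.47, adjusted p = 0.115), although it was after adding a slide term (0.000502), with the replicate block (0.00192) and on slide 2 alone (0.00388).

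Of 17 transcription factors known to act at metalloproteinase promoters, 16 were tested and 6 were called higher in K57N against WT, beside 1.52% of all genes tested. This list too was written with earlier results of these data known, so that its counts cannot set these genes apart from all genes tested. The AP-1 subunits FOS, FOSB, FOSL1 and JUNB had log2 fold changes of 3.47, 3.79, 2.83 and 4.39 (adjusted p = 0.00176, 0.00214, 0.000635 and 0.00155). All 4 were also called higher against F53S, beside 0.953% of all genes tested. Of 22 alternatives, the calls against WT held under 21 or 22, whereas those against F53S held under 15 for FOS, 17 for FOSB, 16 for FOSL1 and 21 for JUNB. JUN had −0.39 (95% interval −1.56 to 0.79, adjusted p = 0.922). The ETS factors ETV4 and ETV5 had log2 fold changes of 5.02 and 3.87 (adjusted p = 0.000615 and 0.0222), called under 21 and 14 of 21 alternatives. Over these alternatives the values lay between 3.4 and 5.3 for ETV4 and between 2.27 and 4.38 for ETV5. Both genes were not called against F53S, where ETV4 had 1.41 (adjusted p = 0.2) and ETV5 1.06 (adjusted p = 0.745). On slide 2 alone both were called against F53S (0.00714 and 0.00632). Neither was well above background on the first WT array, and their differences from WT were 6.09 and 5.83 on slide 1 and 4.49 and 2.89 on slide 2. ETV1, also dim on the first WT array, was not called (log2 fold change 2.80, adjusted p = 0.152) but was after adding a slide term (0.0101), within 4 of 21 alternatives that called it. Its difference from WT was 4.38 on slide 1 and 2.01 on slide 2, and its other tested probes had means of −3.26 and −5.25 in WT and −2.80 and −3.09 in K57N cells. In F53S against WT none of the 16 was called, and ETV4, with 3.61, had the smallest adjusted p of all genes tested, 0.32.

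Of 14 matrix substrates, 12 were tested and none was called by limma in the fit of all arrays without a block. Of all genes tested, 1.52% were called higher and 0.739% lower in K57N against WT, so that this count does not set the substrates apart. COL1A1, a chain of the collagen that MMP1 cleaves, gave 0.37, −0.54 and −0.39 in WT cells and −1.22, −1.23 and −1.70 in K57N cells (log2 fold change −1.20, adjusted p = 0.0994), and LAMB1, a laminin chain of basement membranes, had 1.08 (adjusted p = 0.208), while a second LAMB1 probe had means of −1.44 in WT and −1.19 in K57N cells. Both were called in K57N against WT after adding a slide term, with adjusted p of 0.00327 and 0.000337, with the replicate block (0.00841 and 0.0015) and on slide 2 alone (0.0274 and 0.00207). COL3A1, dim on every K57N array, was not tested in the fit of all arrays and was called lower in K57N against WT on slide 2 alone (adjusted p = 0.0153). The median over the 12 substrates was −0.24.

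**Figure D4:**
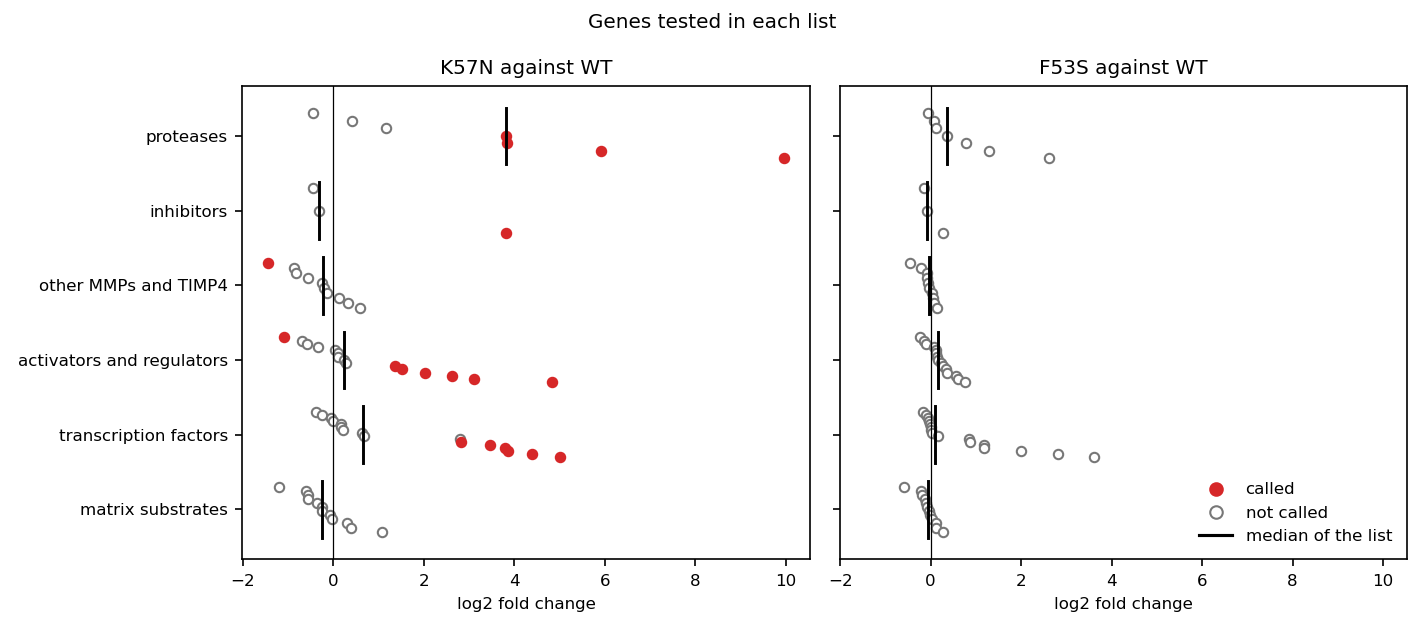
Log2 fold change of the genes tested in each of 6 lists, in K57N against WT (left) and F53S against WT (right), with filled symbols for called genes and a bar for the median of the list. Called genes lie on the right for the proteases, the inhibitors, the activators and regulators and the transcription factors, with MMP23B and LRP1 on the left.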

How the data were processed

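Gene expression was measured on 9 one-color arrays, 3 per cell line. For every array the authors deposited the processed intensity from Agilent Feature Extraction 10.10.1.1, background-subtracted and detrended but not scaled to other arrays. The log2 table deposited beside it had medians between −3.851 and −3.411 per array. It differed from log2 of the processed signal by a constant on each array (within 0.02 for 100% of probes), and the origin of these constants is not given in the sources used here.

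Control spots and spots marked as outliers or non-uniform were left out (278 to 501 per array), and spots of a probe were averaged. RefSeq accessions named 28173 of 50598 probes, and the array annotation the others. Tests used limma 3.58.1 in R 4.3.3, with 1 mean per line and adjustment over all probes tested. Python 3.11.15, pandas 2.3.3 and matplotlib 3.10.9 were also used.

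The members and lists were chosen with earlier results of these data known. All members are named. Of the other lists, genes called in any comparison (at most 8 per list), TIMP4 and RECK are named, and COL1A1, COL3A1, LAMB1, ETV1, JUN, CD14, CD68, PECAM1 and untested genes were singled out after their values were seen. Deviations from the line means of same-numbered arrays had r of 0.35 to 0.88. Within slide 2 r was 0.047 to 0.22, so that the replicate number added little pairing beyond that of the slide. Alternatives covered background correction, normalization, filters, averaging of probes, blocks, the deposited table, the methods' t-test and leaving out each array. The t-test is named in the statistics part of the study's methods, whose part on the arrays names no test. Slide 2 alone, and the slide term without a filter, were added after seeing the data.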

Additional observations from a re-analysis of the deposited data

How the results depend on the processing

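The count of 5 members called in K57N against WT was 3 with normexp background correction, 2 with the methods' t-test after adjustment and 1 when only probes detected above background on all 9 arrays were used, which left 5 members to test. It was 4 without a filter on dim probes, where MMP3 was lost. Against F53S the count of 5 was 3 with normexp, 3 without a filter on dim probes, 2 with the adjusted t-test and 1 with the filter on all 9 arrays. The count of 0 in F53S against WT was 2 with the unadjusted t-test, with MMP10 at background in WT. Leaving out 1 array at a time gave 4 to 5 members in K57N against WT, 0 to 1 in F53S against WT (1 without WT replicate 1) and 2 to 5 in K57N against F53S. The count against F53S was 2 without F53S replicate 2 or 3 and 3 without K57N replicate 1 or 2. A line left with 2 arrays shared its spread with the other lines. Apart from the lower number of members left by the filter, the cause was not tested.

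With the replicate block the counts of members were 5, 0 and 5, and with the slide block also 5, 0 and 5, while the genes called in either direction in K57N against WT numbered 434 without a block, 839 with the replicate block and 867 with the slide block. Neither block changed the call of a member. Over the other alternatives that number lay between 107 (adjusted t-test) and 828 (slide 2 alone).

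MMP1 and MMP10 were called in both K57N comparisons under all 20 alternatives run for them with adjusted p, and their log2 fold changes against WT lay between 7.94 and 10.27 and between 3.24 and 6.18. With normexp, MMP3 had 1.04 (adjusted p = 0.616) and MMP13 1.22 (adjusted p = 0.272) against WT. TIMP1 kept its call against WT under 20 of 21 alternatives, with log2 fold changes from 3.42 to 4.12; the exception was the adjusted t-test (adjusted p = 0.0882).

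In K57N against either line no member changed direction under these alternatives, although MMP2, and TIMP3 against F53S, did so within slide 1. In F53S against WT the sign of uncalled members turned: MMP3 had 0.01 with normexp, and with 1 array left out the log2 fold change spanned −0.07 to 0.95 for MMP2, −0.54 to 0.42 for MMP3, −0.21 to 0.34 for MMP9, −0.06 to 0.36 for MMP14, −0.11 to 0.57 for TIMP1, −0.20 to 0.06 for TIMP2 and −0.27 to 0.06 for TIMP3. Of 645 values of single members under alternatives, 592 stayed on their side of the threshold and kept their sign, 34 lost a call, 5 gained one and 14 turned sign. Among the other named genes whose values were recomputed, those that turned sign spanned −0.77 to 0.01 for JUN and −0.45 to 0.19 for CDH5 in K57N and −0.08 to 0.67 for PRSS2 in F53S, all against WT. Signal over background limits MMP3, MMP10 and MMP13 outside K57N cells.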

Other observations

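Genes whose values over the 9 arrays, set relative to the WT mean, lay closest to those of a called member were found among the 19153 genes with a value on every array, by the root-mean-square difference on the log2 scale. For TIMP1 these were PRSS2, with a difference of 0.14, PAEP, with 0.22, and PRSS3, with 0.24, and PRSS2 and PRSS3 encode trypsinogens. PRSS2 had a log2 fold change of 3.88 in K57N and 0.26 in F53S against WT. Fold changes of genes found in this way follow from the choice and add no support. PRSS2 and PRSS3 are similar in sequence, so their values are uncertain as to gene. For MMP10 they were IL11, a cytokine, with a difference of 0.41, EGR1, an immediate early transcription factor, with 0.43, and XAGE1A, with 0.45. IL11 had a log2 fold change of 6.29 in K57N and 1.34 in F53S against WT.

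For MMP1 the closest genes lay much farther away, DUSP6, a phosphatase of ERK, at 2.11, SPANXN3 at 2.28 and IL11 at 2.33. DUSP6 had a log2 fold change of 6.32 in K57N against WT and 2.90 in F53S against WT. For MMP3 they were LIPG, RGS17 and PRSS3, at 0.49, 0.50 and 0.54, and for MMP13 SPANXN5, SERPINB8 and XLOC_011608, at 0.56, 0.57 and 0.57. MMP3 was at background on all 6 WT and F53S arrays, MMP13 on 4 of these 6 and MMP10 on all WT arrays, so that their distances rest in part on background.

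Of 5 leukocyte markers, CD68, CD14 and 1 of 5 PTPRC probes were well above background on all arrays, CD3E on all WT arrays and 2 arrays of each mutant, and ITGAM on 1 F53S array. The summed linear signal of the 5, relative to the 75th percentile, was 0.831, 0.453 and 0.414 in WT, 1.0, 0.424 and 0.498 in F53S and 1.65, 0.921 and 1.17 in K57N cells. The CD68 probe had the highest mean of each line, but not the highest signal on every array, and this does not rank the transcripts. CD68, a lysosomal protein, had a log2 fold change of 2.04 in K57N against WT (adjusted p = 0.0893, and 7.41e-05 after adding a slide term), and CD14 0.88 (adjusted p = 0.168, and 0.0477 on slide 2 alone, where it was called). Of 8 fibroblast markers, 2 were tested and none was called without a block. COL1A1 was called lower in K57N against WT after adding a slide term (adjusted p = 0.00327), and COL3A1 on slide 2 alone (adjusted p = 0.0153). Of 3 endothelial markers CDH5 alone was well above background on all arrays, with a log2 fold change of −0.13. PECAM1 was well above background on 2 K57N arrays and no others, by 1 of its 3 probes, and was called against WT on slide 2 alone (adjusted p = 0.0281), and KDR was above it on 1 K57N array. The part of these cell types in the results was not tested.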
